A study of Mus musculus with 12 samples.

Results

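The genes described here encode enzymes that add sulfate to sugar chains or take it off again, with heparan sulfate as the main chain. The list named 8 genes, Chst8, Hs3st2, Sulf1, Sulf2, Hs3st1, Hs2st1, Hs6st1 and Ndst1, and its members were found by matching their symbols to the probe annotation of the array. Of the 8, 7 had a probe, each had 1 probe, and all 7 were tested among 21512 features from 25344 probes. Ndst1 was not analysed here. The list was drawn up with earlier results of these arrays in view. Chst8 and Hs3st2 stood out by their mean ratio at 4 months and Sulf1 by its difference between the ages, so those values are given below as descriptions without a test.

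The study looked for genes regulated in adrenal glands of mice of line #56, which carry extra copies of Ftz-F1 (Nr5a1) on a transgene that the sample names call YAC. Nr5a1 encodes SF-1, a nuclear receptor needed for the adrenal cortex and gonads to form. There were 3 pairs of 4-month-old mice, in which the transgenic mouse carried 2 transgene copies, and 3 pairs of 10-day-old mice, in which it carried 1 copy. In each pair the transgenic mouse was set against a wild-type littermate of its own sex and age on 2 two-colour arrays of opposite dye orientation, 12 arrays in all. Pairs are called by the number of the transgenic mouse: pairs 1 and 3 (male) and 5 (female) were 4 months old, and pairs 11 and 13 (male) and 15 (female) were 10 days old. Age and copy number change together and cannot be told apart, and all mice come from 1 transgenic line. By their descriptions, the arrays on which Cy3 marked the transgenic sample formed 1 batch and those on which Cy5 did another, so dye orientation and batch cannot be told apart.

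Values are log2 ratios of the 2 mice of a pair, corrected for the dye trend of each array, and the pair value is the mean of its 2 arrays. The sources used here do not say whether the deposited ratio is transgenic over wild type or the inverse. Signs are therefore given as deposited, and a log2 ratio of 1 is a level in 1 mouse that is 2 times that of its littermate. In whole glands a ratio can come from more cells of a type or from more RNA per cell, and these cannot be told apart.

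Heparan sulfate is a long sugar chain on proteins of the cell surface and the matrix. Ndst enzymes begin its sulfation at nitrogen, Hs2st1 and the Hs6st enzymes add sulfate at the 2-O and 6-O positions, and the Hs3st enzymes add the rare 3-O sulfate last. Sulf1 and Sulf2 work outside the cell and remove 6-O sulfate, which changes how growth factors such as FGFs and Wnts bind the chain. Chst8 acts on another substrate: it sulfates a terminal N-acetylgalactosamine on glycoproteins, best known from pituitary hormones such as luteinizing hormone. All of these transferases draw on the same sulfate donor, PAPS, made by the Papss enzymes.

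Chst8 and Hs3st2 had the highest 4-month ratios among the members, and the sequences before their RefSeq starts are shown because the transgene encodes a DNA-binding factor. Each is the last 250 bases before the annotated start, 5′ to 3′ on the strand of the gene. The Chst8 stretch is at chr7:34812712-34812961 on the minus strand and the Hs3st2 stretch at chr7:121392046-121392295 on the plus strand of GRCm38.p6. Capitals mark GGGCGG read on either strand (the GC box) and, in Hs3st2, TGACGTCA (the cAMP response element).
Chst8: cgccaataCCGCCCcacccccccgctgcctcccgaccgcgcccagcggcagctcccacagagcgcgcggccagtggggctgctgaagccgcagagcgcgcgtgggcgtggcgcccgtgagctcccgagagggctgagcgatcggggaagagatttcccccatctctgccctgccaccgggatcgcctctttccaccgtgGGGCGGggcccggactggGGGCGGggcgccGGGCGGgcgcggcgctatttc
Hs3st2: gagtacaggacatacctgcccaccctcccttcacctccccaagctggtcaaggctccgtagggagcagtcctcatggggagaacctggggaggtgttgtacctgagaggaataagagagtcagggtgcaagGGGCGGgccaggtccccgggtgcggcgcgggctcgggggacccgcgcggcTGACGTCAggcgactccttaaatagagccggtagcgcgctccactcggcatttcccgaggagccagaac
The GC boxes of Chst8 begin 242, 51, 33 and 21 bases before the start. In Hs3st2 the cAMP response element begins 69 bases and the GC box 119 bases before it.

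RefSeq windows of 300 bases, from 250 before to 50 after a start, were matched for 6 of the 7 measured members, with 2 windows for Sulf2 and none for Sulf1. The sequence AAGGTCA, a site that SF-1 is known to bind as a monomer, were searched on both strands and were in 0 of these 7 windows, against 4.72% of all 32851 windows. The shorter AGGTCA, which is part of AAGGTCA, was also in 0 of the 7, against 16.3% of all windows. These counts say only that the letters are not in these windows. TGACGTCA and GGGCGG were searched after the sequences had been read. TGACGTCA was in the window of Hs3st2 alone among the members, against 1.79% of all windows. GGGCGG was in windows of Chst8, Hs3st2, Hs6st1, Sulf2 and Hs2st1, with 35.7% of all windows holding it. The windows were rich in G and C: 78% in Hs6st1, 75% in Chst8, 67.7% in both Hs3st2 and Hs2st1, 67% in Hs3st1, and 58% and 62.3% in the windows of Sulf2, against a median of 52.7%.

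The gene on the transgene and the makeup of the pairs were read before the members. Nr5a1 had pair ratios of -0.45, 0.12 and -0.22 at 4 months and of -0.57, -0.65 and -0.79 at 10 days. It was negative on all 6 arrays at 10 days and on 4 of 6 at 4 months. Whether its probe reads the transgene's transcript is unknown here, so it was not used to set the direction. Defining markers of both adrenal cell layers were measured, with 11 of 16 steroidogenic cortex genes and 24 of 26 chromaffin cell genes tested. Some pairs stood apart in markers of other cells: lymphocyte genes had a median of -1.75 in pair 3, with Cd79b at -5.18, and macrophage genes one of -1.29 there, with Marco at -6.25. Hepatocyte genes had a median of 1.44 in pair 11, with Alb at 6.73, and adipocyte genes one of 0.83 in pair 15, with Adipoq at 5.13.

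Chst8 had the highest mean ratio of the members at 4 months. The 4-month pairs were at 1.19 (pair 1), 1.20 (pair 3) and 1.07 (pair 5), against -0.28 (pair 11), 0.50 (pair 13) and 0.07 (pair 15) at 10 days. The 4-month values lay close together and all above the 10-day values, which lay on both sides of 0. The mean was 1.15 ± 0.07 at 4 months and 0.10 ± 0.39 at 10 days (SD, n = 3 pairs each), a ratio of 2.22 and of 1.07 on the linear scale. Chst8 ranked 20th of 21512 features from the top at 4 months. The difference between the ages was 1.05, the 40th highest.

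The dye swap of Chst8 gave the same sign in every pair. With the transgenic sample in Cy3, the 4-month arrays read 1.44, 1.47 and 1.29 for pairs 1, 3 and 5. With it in Cy5 they read 0.94, 0.92 and 0.84. The Cy3 arrays were thus higher in each 4-month pair, and Cy5 minus Cy3 averaged -0.50. At 10 days the arrays of pair 11 read -0.34 in Cy3 and -0.22 in Cy5, those of pair 13 read 0.75 and 0.25, and those of pair 15 read 0.10 and 0.04. Pair 13 was highest and pair 11 lowest in both orientations.

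Chst8 and Hs3st2 stood out by their 4-month means, and their 10-day means were tested. Earlier results of these arrays were in view, so it cannot be shown that the 10-day values took no part in the choice. The standard errors come from a spread shared by both ages, so the 4-month values by which the genes were chosen enter them. For Chst8 the SD was 0.39 at 10 days and 0.07 at 4 months, so the shared spread is below that of its 10-day pairs. For Hs3st2 the SDs were 0.13 and 0.20. In limma the 10-day mean of Chst8 was 0.10 with a standard error of 0.15 and a 95% interval from -0.24 to 0.43 (adjusted p = 0.906 over all features, positive in 2 of 3 pairs). For Hs3st2 it was 0.23 with a standard error of 0.11 and an interval from -0.03 to 0.49 (limma adjusted p = 0.656, positive in 3 of 3 pairs). Neither passed, and of all features 0 passed at 10 days at an adjusted p under 0.05 (0%), with 1796 features (8.35%) at an unadjusted p under 0.05. The ordinary linear model also called 0 features. Without pair 13 the 10-day mean of Chst8 was -0.11, and without pairs 3, 11 and 15 together, which leaves pair 13 alone, it was 0.50.

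Hs3st2 encodes a 3-O-sulfotransferase that acts on heparan sulfate and is best known from the brain. Its pairs were at 1.22 (pair 1), 0.87 (pair 3) and 0.88 (pair 5) at 4 months, against 0.24 (pair 11), 0.34 (pair 13) and 0.10 (pair 15) at 10 days. All 6 were positive, and the lowest 4-month pair was above the highest 10-day pair. The mean was 0.99 ± 0.20 at 4 months and 0.23 ± 0.13 at 10 days (SD, n = 3 each), a ratio of 1.99 and of 1.17. It ranked 28th from the top at 4 months, and its difference of 0.76 ranked 132nd.

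Hs3st2 was the 1 member with a positive ratio on all 12 arrays after the loess correction. As deposited, its 10-day Cy3 arrays read -0.11, -0.28 and -0.57 for pairs 11, 13 and 15, so this trait depends on the correction. The share of all features positive on all 12 arrays was not counted. Of 20355 features measured in all pairs, 5.67% were positive in 6 of 6 pairs. On the 4-month arrays alone, 4.88% were positive and 4.12% negative on 6 of 6. The 4-month arrays of Hs3st2 read 0.97, 0.77 and 0.66 with the transgenic sample in Cy3 and 1.47, 0.98 and 1.09 with it in Cy5, for pairs 1, 3 and 5. The 10-day arrays read 0.06, 0.27 and 0.04 in Cy3 and 0.43, 0.42 and 0.15 in Cy5, for pairs 11, 13 and 15. Here the Cy5 array was the higher one in every pair, the reverse of Chst8 at 4 months, by 0.38 on average at 4 months and 0.21 at 10 days.

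Sulf1 encodes an extracellular sulfatase and was the member with the lowest ratios at 4 months. Its pairs were at -1.06 (pair 1), -0.72 (pair 3) and -0.40 (pair 5) at 4 months, against 0.14 (pair 11), 0.16 (pair 13) and 0.16 (pair 15) at 10 days. Every 4-month pair was below 0 and every 10-day pair above it after the loess correction. With each array only centred on its median, the 4-month pairs were at -1.28, -0.74 and -0.41 and the 10-day pairs at -0.14, 0.08 and 0.08, a 10-day mean of 0.0073, so the positive 10-day side depends on the correction while the groups still do not overlap. The mean was -0.73 ± 0.33 at 4 months and 0.15 ± 0.01 at 10 days (SD, n = 3 each), a ratio of 0.605 and of 1.11. The 4-month mean ranked 290th from the bottom, and the difference of -0.88 ranked 233rd. This sign pattern, negative in 3 of 3 pairs at 4 months and positive in 3 of 3 at 10 days, was found in 269 of the 20355 features (1.32%). That share covers only the direction of Sulf1 and leaves out the opposite one. Sulf1 was chosen by its difference, so nothing is read from the share.

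The size of the Sulf1 ratio depended on the dye orientation. With the transgenic sample in Cy3, the 4-month arrays read -1.62, -1.19 and -0.61 for pairs 1, 3 and 5. With it in Cy5 they read -0.50, -0.25 and -0.19. All 6 were negative and kept the same order of pairs in both orientations, but the orientations differed by 0.82 on average. The 4-month mean was -1.14 from the Cy3 arrays alone and -0.32 from the Cy5 arrays alone. At 10 days the arrays read 0.16, -0.05 and 0.17 in Cy3 and 0.12, 0.37 and 0.15 in Cy5, for pairs 11, 13 and 15. The 2 arrays of pair 13 thus had opposite signs, and the narrow spread of the 10-day pair values is that of averages and not of single arrays.

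**Figure D1:**
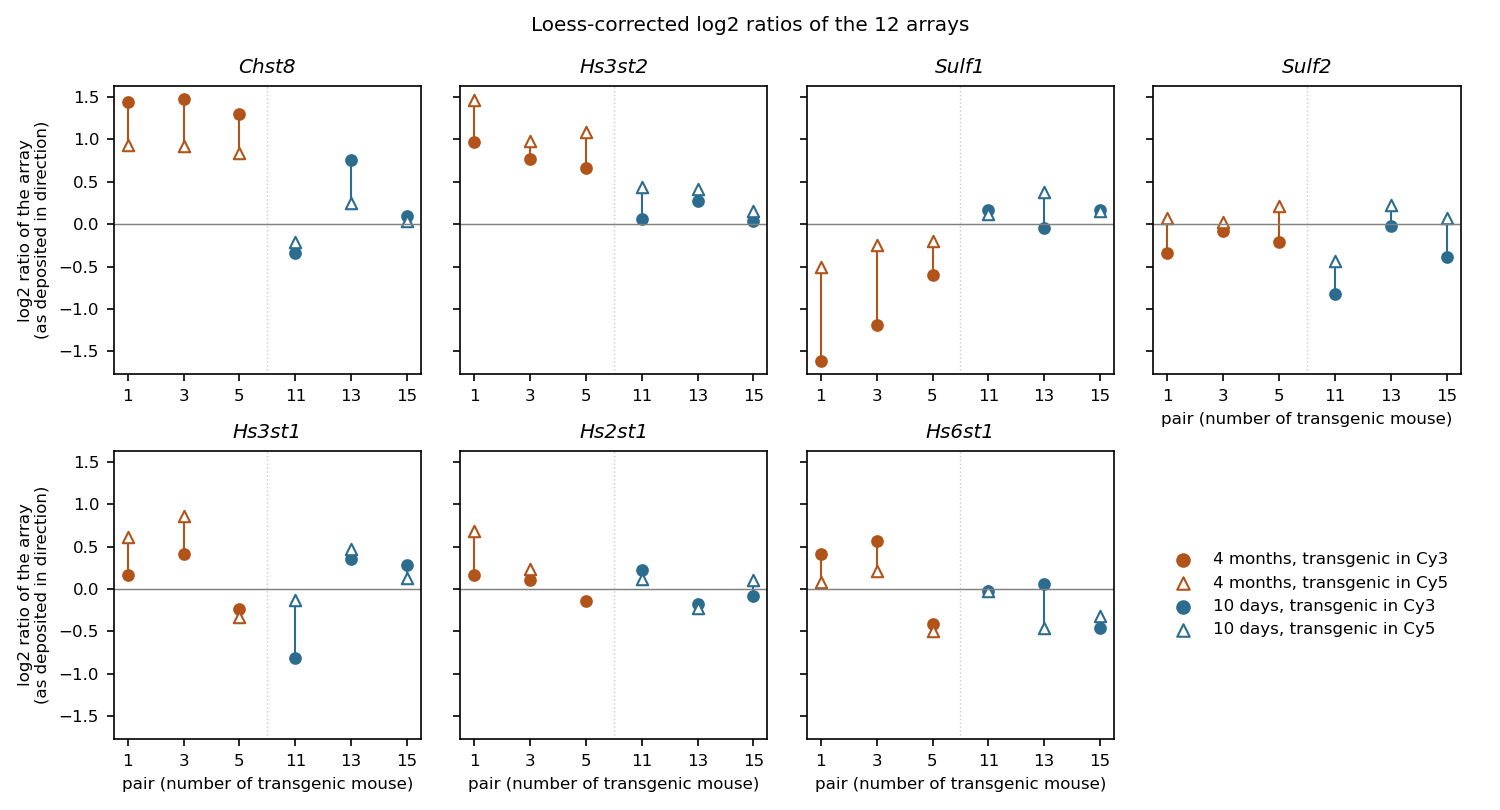
Loess-corrected log2 ratio on each of the 12 arrays (vertical axis) for the 7 measured members, by pair on the horizontal axis with the 4-month pairs left, and 1 symbol for each dye orientation. Chst8 and Hs3st2 are positive on 6 of 6 4-month arrays and Sulf1 is negative on 6 of 6, with Sulf1 orientations that differ by 0.82 on average at 4 months.

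The other sulfatase, Sulf2, did not share the values of Sulf1. Its pairs were at -0.14, -0.02 and 0.00 at 4 months and at -0.63, 0.10 and -0.16 at 10 days, for pairs 1, 3, 5 and 11, 13, 15. The groups overlapped, and the lowest value was that of pair 11. The means were -0.05 ± 0.07 and -0.23 ± 0.37 (SD, n = 3 each), and the 4-month arrays were divided between 3 positive and 3 negative.

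Hs3st1, the 3-O-sulfotransferase known for making the antithrombin-binding site of heparin, had overlapping groups too. It was at 0.39, 0.63 and -0.28 in the 4-month pairs 1, 3 and 5, and at -0.47, 0.41 and 0.21 in the 10-day pairs 11, 13 and 15. The 2 arrays of each pair shared a sign, so the spread was one between pairs: 0.25 ± 0.47 at 4 months and 0.05 ± 0.46 at 10 days (SD, n = 3 each). Hs3st2, of the same enzyme family, had an SD of 0.20 and 0.13.

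Hs2st1 and Hs6st1 work earlier on the chain. Hs2st1 was at 0.42 and 0.17 in pairs 1 and 3 at 4 months and at 0.17, -0.20 and 0.01 at 10 days, with no pair 5 value because 1 of its arrays was empty at this spot. Its means were 0.30 ± 0.18 (SD, n = 2) and -0.01 ± 0.18 (SD, n = 3), and the lowest 4-month and the highest 10-day pair were equal to 2 decimals. Hs6st1 was at 0.25, 0.39 and -0.46 in pairs 1, 3 and 5 and at -0.03, -0.20 and -0.39 in pairs 11, 13 and 15. Its groups overlapped, with the female pairs 5 and 15 lowest at their age, and the means were 0.06 ± 0.45 at 4 months and -0.21 ± 0.18 at 10 days (SD, n = 3 each).

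By mean ratio the members ran at 4 months from Chst8 (1.15) and Hs3st2 (0.99) over Hs2st1 (0.30), Hs3st1 (0.25), Hs6st1 (0.06) and Sulf2 (-0.05) to Sulf1 (-0.73). Chst8 and Hs3st2 overlapped in their pair values, and so did each neighbouring couple from Hs2st1 over Hs3st1 and Hs6st1 to Sulf2. A gap lay between Hs3st2, with a lowest pair of 0.87, and Hs3st1, with a highest pair of 0.63. At 10 days the means ran only from 0.23 (Hs3st2) to -0.23 (Sulf2), and the lowest pair of Hs3st2 and the highest of Sulf2 were equal to 2 decimals. Of the 6 members measured in all pairs, 2 lay wholly higher at 4 months (Chst8 and Hs3st2) and 1 wholly lower (Sulf1). Of 20355 such features, 5.08% lay wholly higher at 4 months and 5.34% wholly lower, 10.4% in all. The members had been chosen in part by these values, so nothing is read from the share.

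**Figure D2:**
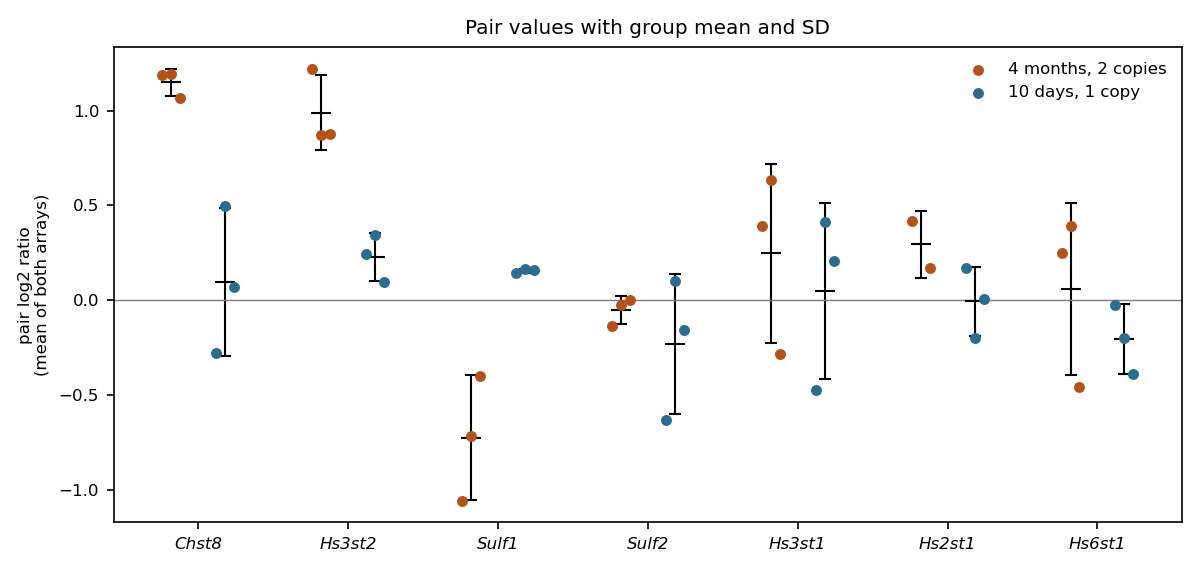
Pair log2 ratios (vertical axis, mean of the 2 arrays of a pair) of the 7 measured members, with the 4-month pairs left of the 10-day pairs for each gene. Points are pairs and bars give the group mean and SD. Chst8, Hs3st2 and Sulf1 have groups that lie apart, while Sulf2, Hs3st1 and Hs6st1 have groups that overlap.

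The rest of the sulfation pathway was read from lists of 110 other genes, of which 97 had a probe and 95 were tested. These lists were written from knowledge of the pathway, with earlier results of these arrays in view. In limma 0 of the 95 passed at an adjusted p under 0.05 at 4 months, at 10 days, over all 6 pairs or for the difference between the ages, and the ordinary linear model also called 0 in each. Over all features in limma 0 (0%), 0 (0%), 12 (0.0558%) and 0 (0%) passed. At an unadjusted p under 0.05 there were 10 of the 95 (10.5%; 2 positive, 8 negative) at 4 months, against 12.3% of all features (6.09% positive, 6.22% negative), and 9 (9.47%) at 10 days, against 8.35%. Over 6 pairs there were 14 (14.7%), against 15%, and for the difference 2 (2.11%), against 4.57%. The shares of the pathway were thus near or below those of all features. The median ratio of the 95 genes was -0.04 at both ages, against -0.01 for all features.

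Among genes that build the chain, Fam20b had the smallest adjusted p of all pathway genes over 6 pairs. It encodes a kinase that phosphorylates the xylose at the root of the chain. Its pairs were at 0.60, 0.49 and 0.63 at 4 months and at 0.99, 0.39 and 0.17 at 10 days, all positive and with overlapping groups. The mean over 6 pairs was 0.54 with a standard error of 0.11 (limma adjusted p = 0.0990), which did not pass. It passed when the 12 arrays were fitted singly with the pair as a random block (limma adjusted p = 0.00446). So did 766 of all features, against 12 in the fit of pair values. Of the 11 linkage and chain genes, 4 were positive at 4 months and 6 at 10 days, with medians of -0.04 and 0.04.

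Of the genes that modify the chain, 6 of 11 listed were tested beside the members, and 4 had a positive mean at 4 months and 2 at 10 days. Ndst2, an N-sulfotransferase of the enzyme family that starts sulfation, was negative in 6 of 6 pairs, at -0.24, -0.64 and -0.23 at 4 months and at -0.32, -0.48 and -0.20 at 10 days. Its mean over 6 pairs was -0.35 (limma adjusted p = 0.138), which did not pass. With the pair as a random block it passed (limma adjusted p = 0.0332), as did 766 of all features. Glce, the epimerase that converts glucuronic to iduronic acid, averaged 0.27 ± 0.34 at 4 months and -0.16 ± 0.23 at 10 days (SD, n = 3 each; limma adjusted p of the difference = 0.934). In the breakdown list, 3 of 7 tested genes were positive at each age. Sgsh, which encodes the lysosomal sulfamidase, averaged 0.01 ± 0.36 at 4 months and 0.54 ± 0.30 at 10 days (limma adjusted p = 0.463 at 10 days). Gusb, the lysosomal glucuronidase gene, averaged -0.11 ± 0.25 (SD, n = 2) at 4 months and -0.49 ± 0.38 (SD, n = 3) at 10 days, with adjusted p = 0.5 in limma at 10 days.

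Proteins that carry the chain were mostly on the negative side, with 11 of 14 negative at each age and medians of -0.15 at 4 months and -0.08 at 10 days. Over all features 48% were positive at 4 months and 48.6% at 10 days. Col18a1, the core protein of collagen XVIII, was at -0.98, -0.47 and -0.35 at 4 months and at -0.09, -0.35 and -0.14 at 10 days. All its pairs were negative, with pair 5 at 4 months and pair 13 at 10 days equal to 2 decimals, and the 4-month mean of -0.60 ± 0.33 had an adjusted p of 0.233 in limma. Fgf18, a growth factor ligand that binds heparan sulfate, averaged -0.40 ± 0.13 at 4 months and -0.21 ± 0.12 at 10 days (SD, n = 3 each), and was also negative in 6 of 6 pairs (limma adjusted p = 0.135 over 6 pairs). Of 89 pathway genes measured in every pair, 4 were positive in 6 of 6 pairs (4.49%; Fam20b, Ndst4, Gal3st1 and B4galnt4), against 5.67% of all features. Negative in 6 of 6 were 6 (6.74%; Extl1, Ndst2, Gpc2, Col18a1, Lhb and Fgf18), against 4.76%.

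The list of other carbohydrate sulfotransferases, a broad one, did not follow Chst8 as a group. Of 15 other carbohydrate sulfotransferases, 4 were positive at 4 months and 7 at 10 days, with medians of -0.11 and -0.00. Chst11 and Chst12, which both sulfate chondroitin at the 4-O position, lay on opposite sides. Chst11 was at 0.60, 0.59 and 0.04 at 4 months and at -0.02, -0.08 and -0.36 at 10 days. Chst12 was at -0.36, -0.66 and -0.05 at 4 months and at 0.43, 0.33 and 0.04 at 10 days. Neither gene's groups overlapped, as in 7 of the 89 pathway genes measured in all pairs (7.87%), against 10.4% of all features. The differences were 0.56 and -0.63, and neither passed (limma adjusted p = 0.934 for both). Chst10, which makes the HNK-1 epitope, averaged -0.31 ± 0.16 at 4 months and -0.03 ± 0.06 at 10 days (SD, n = 3 each; limma adjusted p = 0.310 at 4 months).

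Genes that make or carry the acceptor of Chst8 were also measured. B4galnt4, a transferase that adds the N-acetylgalactosamine which Chst8 sulfates, averaged 0.19 ± 0.32 at 4 months and 0.41 ± 0.36 at 10 days (SD, n = 3 each; limma adjusted p = 0.564 at 10 days). Pomc, a prohormone whose glycans carry this modification in the pituitary, averaged 0.11 ± 0.28 and -0.21 ± 0.18. Lhb, the luteinizing hormone subunit, averaged -0.15 ± 0.04 and -0.33 ± 0.20 (limma adjusted p = 0.478 at 10 days). Of the 7 tested genes of this list, 5 were positive at each age. Of 8 genes for the supply of the sulfate donor, Papss1 and Papss2 among them, 1 was positive at 4 months and 2 at 10 days, and all their means lay between -0.33 and 0.08. Of 10 tested genes for cytosolic sulfotransferases, 4 were positive at 4 months and 2 at 10 days. Sult2a1 and the steroid sulfatase gene Sts were on the same list but were not tested. Sult2b1, which sulfates cholesterol, averaged 0.23 ± 0.19 at 4 months (limma adjusted p = 0.447).

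**Figure D3:**
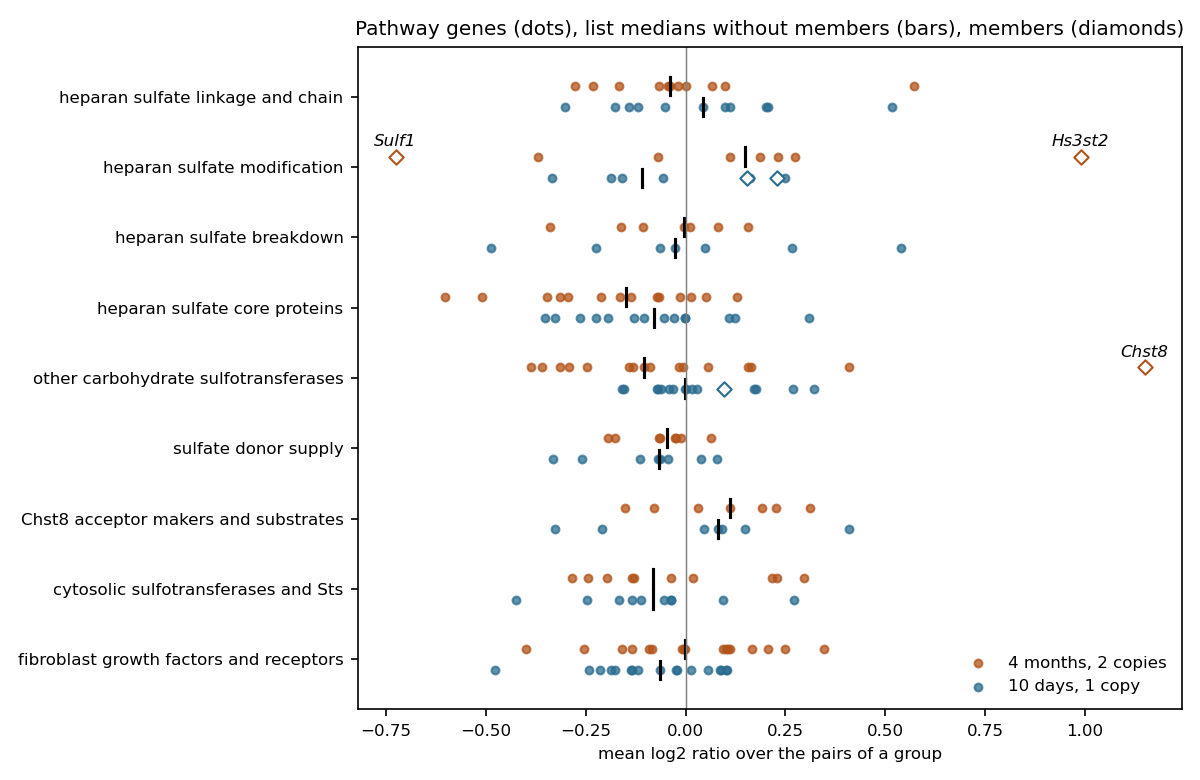
Mean log2 ratio over the pairs of a group (horizontal axis) for genes of the pathway lists, with a row for each list, the 4-month means above the 10-day means, bars for list medians without the members and diamonds for Chst8, Hs3st2 and Sulf1. The dots run from -0.60 to 0.57 at 4 months, and the 3 diamonds, which were chosen by their values, are shown for scale only.

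Markers of adrenal cell types differed between the pairs. Of 11 steroidogenic cortex genes, 7 were positive at 4 months and 2 at 10 days, with pair medians of -0.23, 0.58 and 0.14 in pairs 1, 3 and 5 and of -0.42, -0.03 and 0.23 in pairs 11, 13 and 15. Cyp21a1, a steroid hydroxylase gene of this list named after its values were seen, was at -1.41, 1.64 and 0.75 in pairs 1, 3 and 5 and at -3.18, -3.96 and 0.24 in pairs 11, 13 and 15. Of 24 chromaffin cell genes, 21 were positive at 4 months with a median of 0.43 and 18 at 10 days with a median of 0.28. Their median by pair was 0.24, 0.62 and 0.38 in pairs 1, 3 and 5 and 0.05, 0.33 and 0.65 in pairs 11, 13 and 15. Pair 15 had the highest chromaffin median, with Chst8 at 0.07 and Hs3st2 at 0.10. Pair 3 had the next highest, with Chst8 at 1.20 and Hs3st2 at 0.87. Of 19 capsule and fibroblast genes, 3 were positive at 4 months and 6 at 10 days. Their median was -0.39, -0.21 and -0.06 in pairs 1, 3 and 5 and -0.22, -0.16 and 0.17 in pairs 11, 13 and 15. The part of these cells in the members' values was not tested.

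Immune cell genes are given as counts and medians. Of 14 macrophage genes, 2 were positive at 4 months and 9 at 10 days, with pair medians of -0.18, -1.29 and -0.49 in pairs 1, 3 and 5 and of -0.06, -0.08 and 0.51 in pairs 11, 13 and 15. Of 15 lymphocyte and antigen presentation genes, 1 was positive at 4 months and 8 at 10 days. The part of immune cells in the members' values was not tested. Without pair 3 the 4-month mean was -0.73 for Sulf1, 1.13 for Chst8 and 1.05 for Hs3st2. Macrophage medians were negative in pairs 1 and 5 too, so nothing about immune cells is read from these means. Leaving out pairs 3, 11 and 15 together leaves pair 13 alone at 10 days. The difference between the ages was then -0.89 for Sulf1 and 0.70 for Hs3st2. For Chst8 it was 0.63, against 1.05 with all pairs.

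**Figure D4:**
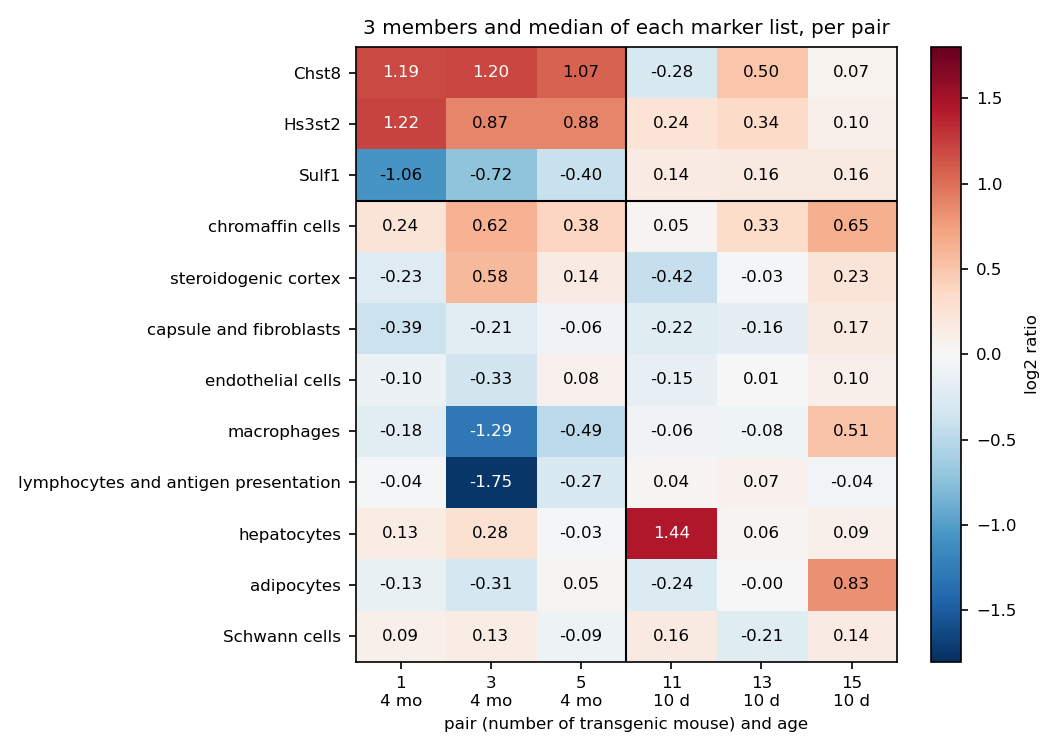
Log2 ratio in each pair (columns, 4-month pairs left of the line and 10-day pairs right) for Chst8, Hs3st2 and Sulf1 and for the median of each list of cell type markers (rows), as colour. The lymphocyte median of -1.75 in pair 3 and the hepatocyte median of 1.44 in pair 11 stand apart from the other pairs. Sulf1 is lowest in pair 1.

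The genes most like each of the 3 members were found as those with the smallest root mean square difference in log2 ratio over the 6 pairs, among 17041 genes with values on all 12 arrays. For Chst8 they were Ncald, a neuronal calcium sensor gene (0.361), the tRNA-modifying Trit1 (0.370) and Appbp2 (0.387). Ncald averaged 1.03 at 4 months and 0.32 at 10 days. For Hs3st2 they were Pcsk1, a prohormone convertase of neuroendocrine cells (0.253), the orphan receptor gene Gpr176 (0.255) and the lactate dehydrogenase gene Ldhc (0.259). Pcsk1, which is also on the list of chromaffin cell genes, averaged 0.80 at 4 months and 0.53 at 10 days. For Sulf1 they were Maoa, which encodes a monoamine oxidase (0.0870), Gstk1 (0.111) and H2-T23 (0.175). Maoa averaged -0.67 at 4 months and 0.17 at 10 days. At 4 months Chst8 and Hs3st2 ranked 20th and 28th from the top and Sulf1 290th from the bottom. Fewer genes reach values as extreme as those of Chst8 and Hs3st2, so the distances are not compared between members.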

How the data were processed

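Adrenal RNA of 6 transgenic and wild-type littermate pairs was hybridized on 12 two-colour arrays, 2 per pair with exchanged dyes. The authors deposited a log2 ratio of both channels for each spot. Their scanner, background subtraction and normalization are nowhere stated in the sources used here. The 6 arrays on which Cy3 marked the transgenic sample are stored at full precision, and 100% of their ratios were quotients of whole numbers up to 65535 (relative tolerance 1e-13). The deposited ratios were not centred, with array medians from -0.68 to -0.22 in that orientation and from 0.74 to 1.50 in the other. Between 4.31% and 6.59% of spots were empty. How far signals lay above background is unknown, and precision is limited by the array number.

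Each array was corrected by loess (span 0.3) of the ratio on the probe signal recovered from those whole numbers (75th percentile over the 6 arrays, 24636 probes). No member was near the limit of the scanner. As deposited, the 2 arrays of a pair correlated across probes at -0.50 to -0.10. Once orientation means were subtracted, they correlated at 0.23 to 0.66, against -0.28 to 0.12 between pairs (30 combinations). The subtraction itself lowers the correlations between pairs, so the gap is in part built in. Columns were left as deposited because of the positive values within pairs. Of the probes, 21082 had a single gene in the platform annotation and 30 several. Probes of a gene were averaged, and a pair value needed both arrays, which hold the same RNA and count as 1 replicate. Features with values in 2 of 3 pairs per group were fitted with a mean per group in limma 3.58.1 under R 4.3.3, two-sided, with Benjamini-Hochberg adjustment over 21512 features and a threshold of 0.05. Promoter sequences are RefSeq's, GRCm38.p6. Members and lists were chosen with earlier results of these data known. Pathway genes were named as the 3 highest and 3 lowest moderated statistics of each contrast and any gene that passed, and marker genes as the extremes of a pair that stood apart. Other pathway genes were named as the full set behind a small count, after their values were seen. Alternatives covered the correction, dye orientation, the block, sex, moderation, dim probes and leaving out pairs.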

Additional observations from a re-analysis of the deposited data

Results flagged for a closer look

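Sulf1 had ratios of opposite sign at the 2 ages, negative in 3 of 3 pairs at 4 months and positive in 3 of 3 pairs at 10 days, with a difference of -0.88 on the log2 scale. With arrays centred on their median in place of loess, the 10-day pairs were at -0.14, 0.08 and 0.08, with a mean of 0.0073, so the opposite signs did not hold in pair 11. The difference was not tested, because the gene was chosen by it. It was -1.23 where only Cy3 marked the transgenic sample and -0.53 where only Cy5 did.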

How the results depend on the processing

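The 4-month mean and the difference between the ages kept their sign for Chst8, Hs3st2 and Sulf1 under the alternatives that can change them, 10 for the mean and 12 for the difference; the others leave the value as it is by construction. Over the members, 309 values changed under an alternative, of which 279 stayed within 1 SD of those reported and 30 did not. The SD is that of the pair values. Leaving out 1 pair cannot shift a mean or a difference by that much, so such values stay within the SD by construction. For the mean over all pairs, the SD also holds the difference between the ages. The count of 279 is therefore not read as a measure of stability. Of 28 member contrasts, 18 kept their sign throughout. The 10-day mean of Sulf1 was 0.0073 with median-centred arrays, against 0.15 as reported. The 4-month mean ran from 0.90 (Cy5 arrays only) to 1.49 (as deposited) for Chst8, from 0.80 (Cy3 arrays only) to 1.36 (as deposited) for Hs3st2 and from -1.14 to -0.32 (Cy3 and Cy5 arrays only) for Sulf1.

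Counts of features past the threshold depended more on the setting. With the ratios as deposited, which shifts the median feature to 0.36 at 4 months and 0.20 at 10 days, 2548 features passed at 4 months, 20 at 10 days, 5971 over 6 pairs and 16 for the difference. The Cy3 arrays alone gave 288, 31 and 1404 for the first 3 of these comparisons, the Cy5 arrays alone 920, 215 and 3436, and the 12 arrays with the pair as a random block 287, 69 and 766; single orientations leave the dye effect of each probe in the value. Over 6 pairs, 0 passed with median-centred arrays, with sex added or without pairs 3, 11 and 15 together, and 1 in the ordinary linear model. Leaving out 1 pair gave 0 to 5 features at 4 months (5 without pair 5), 0 to 1 at 10 days (1 without pair 11) and 0 to 15 over 6 pairs: 15 without pair 5, 4 without pair 11 and 0 without pair 1, 3, 13 or 15.

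Of the pathway genes, 95 in the reported setting, 7 passed at 4 months as deposited, 2 with the Cy5 arrays alone (Fam20b and Fgf18) and 1 with the block (Fam20b). Of all features, 2548 of 21512, 920 of 21609 and 287 of 21713 passed in these settings. Over 6 pairs there were 19 as deposited, 2 with the Cy3 arrays alone (Col18a1 and Sult1e1), 11 with the Cy5 arrays alone and 2 with the block (Fam20b and Ndst2). The counts of all features there were 5971 of 21512, 1404 of 21844, 3436 of 21609 and 766 of 21713. The causes were not tested. Using only pairs with both arrays measured is the setting reported, so it gave no other value; single-array pair values and the fit without pairs 3, 11 and 15 were added after seeing the data. No paired analysis was possible because replicate numbers are not shared between the ages, and each value is itself a ratio within a pair.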
